A study of Mus musculus with 8 samples.

Results

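The interferon-inducible GTPases described here are 10 genes chosen by symbol, of the 46078 genes counted in the mouse microglial cell line BV-2, which is immortalized. They are 6 guanylate-binding proteins (Gbp2, Gbp3, Gbp4, Gbp5, Gbp7 and Gbp9) and 4 immunity-related GTPases (Irgm1, Irgm2, Igtp and Iigp1), each matched to 1 Ensembl gene of the count table. Both families hydrolyse GTP and are made in quantity after interferon. Guanylate-binding proteins are large dynamin-related GTPases that coat pathogen vacuoles and bacteria in the cytosol. Immunity-related GTPases fall into regulators bound to cellular membranes (Irgm1, Irgm2 and Igtp) and effectors that load onto pathogen vacuoles (Iigp1). In macrophages and microglia LPS reaches them through TLR4, the adaptor TRIF and interferon beta made by the cells themselves.

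RNA-Seq of poly-A RNA was made from 4 groups with 2 libraries each, which the submitters describe as biological replicates. Control cells received no LPS, LPS cells received 100 ng/mL LPS from a rough strain of Escherichia coli for 20 h, AGE+LPS cells received aged garlic extract (AGE, 0.5% v/v) from 1 h before the same LPS, and FruArg+LPS cells received FruArg (3 mM), a compound of the extract formed from arginine and glucose, from 1 h before LPS. Neither co-treatment was given without LPS, and the cells are 1 line. Total counts (replicates 1 and 2) were 2707500 and 8995052 in control, 8720784 and 12069807 in LPS, 6795464 and 6669072 in AGE+LPS, and 4692715 and 5822113 in FruArg+LPS libraries.

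The cell type was checked on markers. All 12 microglia or macrophage markers had counts, and their summed level was 3653 and 4373 CPM (counts scaled to the TMM-adjusted total of each library, in the usual CPM unit) in control, 4138 and 4715 in LPS, 4250.3 and 4917 in AGE+LPS, and 5405 and 5461 in FruArg+LPS libraries. Adgre1 was the most abundant of them, at 626 to 2293 CPM. Of the markers of resting microglia, Tmem119 lay between 0 and 1.38 CPM, Cx3cr1 between 0 and 4.02 CPM and P2ry12 between 0.229 and 9.27 CPM. The 4 markers each of neurons, astrocytes and fibroblasts were near 0. Their summed levels were at most 0.38 CPM for neurons (Map2 the most abundant, Rbfox3, Snap25 and Syt1 at 0) and 1.28 CPM for astrocytes (Slc1a3 the most abundant, Aqp4 and Aldh1l1 at 0). For fibroblasts the sum was at most 0.276 CPM, and each of the 4 markers had 1 count in 1 LPS library.

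By the labels, all 4 first replicates were sequenced in lane 3, and all 4 second replicates in lane 6. The names of the second replicates also carry another library series, so lane and library series cannot be told apart. The GTPase genes stood apart between the replicates. The median log2 difference of the 10 genes, replicate 2 minus replicate 1, was 0.44 in control (8 genes higher in replicate 2), 0.69 in LPS (10 genes), 0.38 in AGE+LPS (9 genes) and 1.24 in FruArg+LPS (10 genes). The same median over the 12873 genes that passed the filter over the 8 libraries lay between -0.02 and 0.023. The part of lane or library series in this was not tested. Differences are therefore given within each lane. Where the replicate number as a block changed a call of the 10 genes, the count of calls with it is given, with values for some genes.

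The genes lie at 5 places of the genome (GRCm38, GENCODE M21). On chromosome 3 Gbp5 (ENSMUSG00000105504, chr3:142493978-142522344), Gbp7 (ENSMUSG00000040253, chr3:142530342-142550149), Gbp3 (ENSMUSG00000028268, chr3:142560026-142573209) and Gbp2 (ENSMUSG00000028270, chr3:142620602-142638008) lie in this order on the plus strand, with Gbp2b between Gbp3 and Gbp2. On chromosome 5 Gbp9 (ENSMUSG00000029298, chr5:105077630-105139539) and Gbp4 (ENSMUSG00000079363, chr5:105115767-105139586) overlap on the minus strand. On chromosome 11 Irgm1 (ENSMUSG00000046879, chr11:48861968-48871683) is on the minus strand, and Igtp (ENSMUSG00000078853, chr11:58199556-58207591) and Irgm2 (ENSMUSG00000069874, chr11:58199618-58222782) overlap on the plus strand. Iigp1 (ENSMUSG00000054072, chr18:60376027-60392634) is the single one on chromosome 18. Annotated exons shared with another counted gene on the same strand made up 8.01% of Igtp and 4.39% of Irgm2 (with each other), 11.3% of Gbp7 (with Gm43802), and 1.16% of Gbp9 and 0.814% of Gbp4 (with each other and Gbp8). Of Gbp2 0.954% is shared with Mir6381 on the other strand, and whether the counting used the strand is not stated. Members of these families are close copies of each other, and the treatment of reads that match several genes is not given in the sources used here, so each gene's count is uncertain to that extent.

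**Figure D1:**
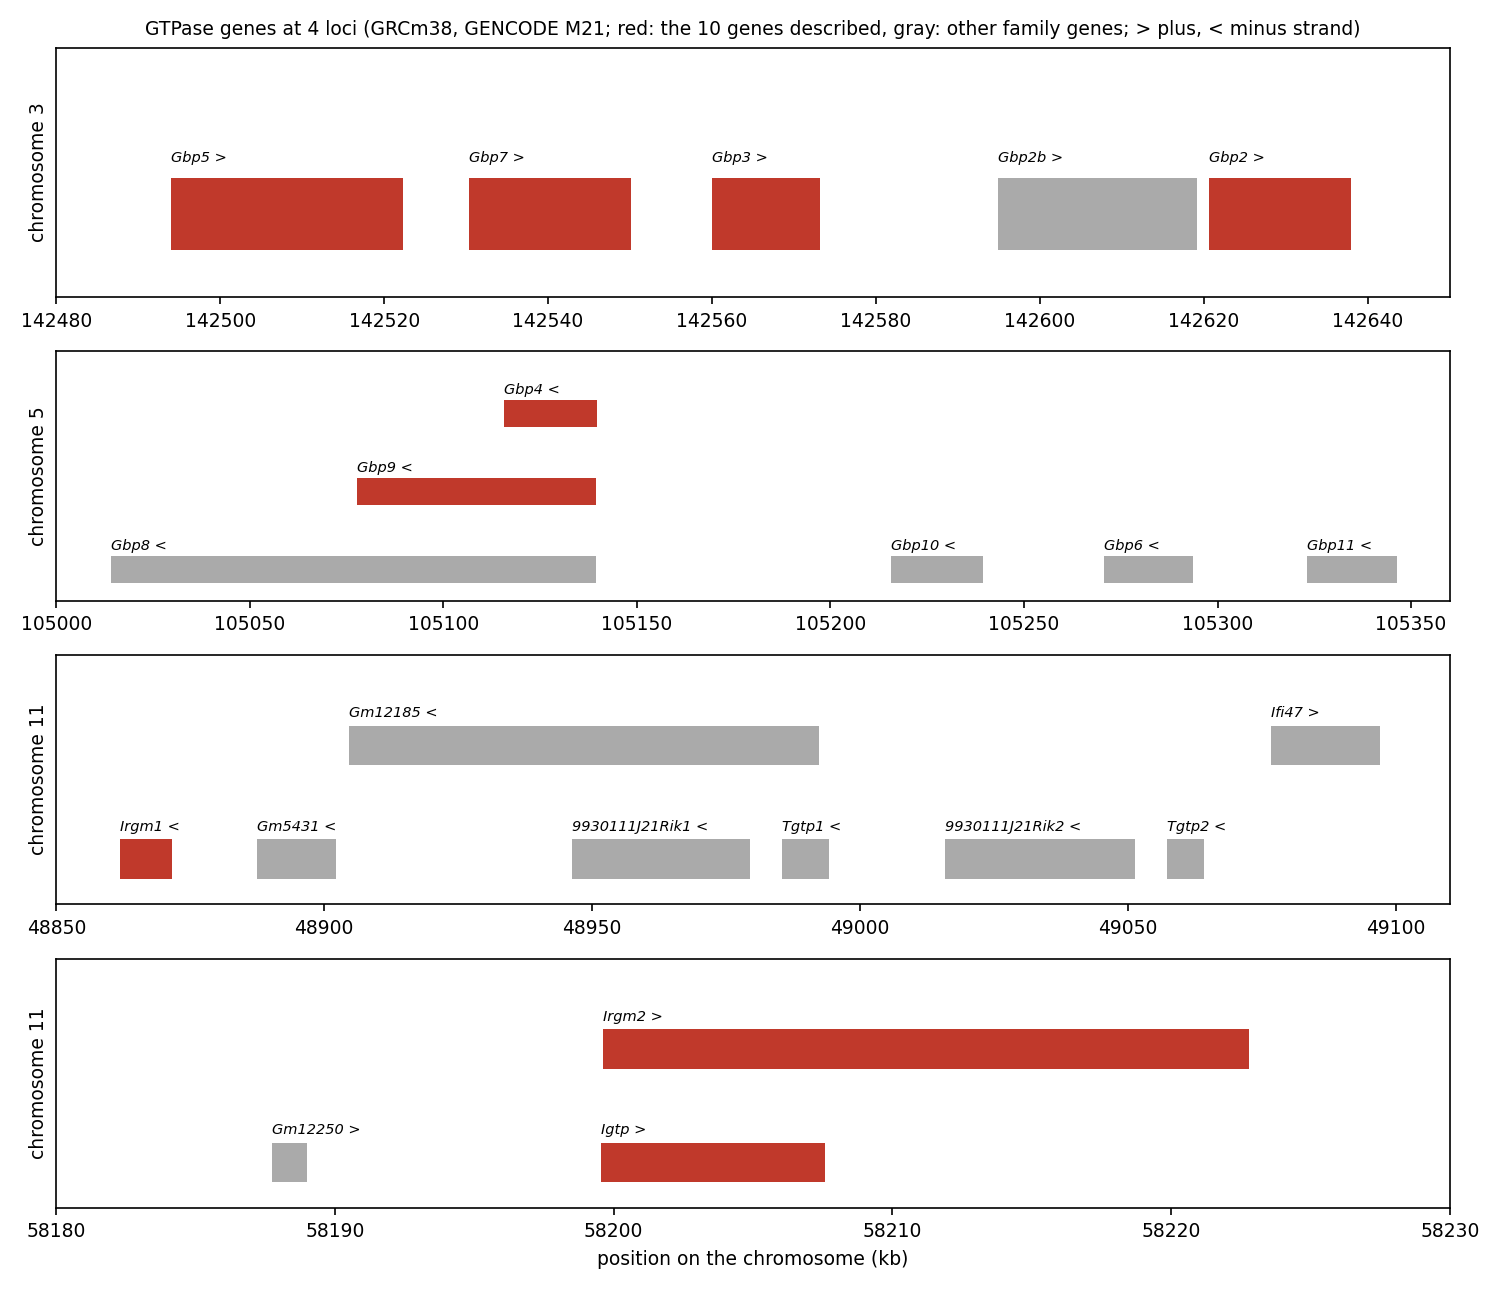
Positions of GTPase genes at 4 of the 5 places (x axis, position in kb on GRCm38), with the genes described in red and other family genes in gray. Gbp5, Gbp7, Gbp3 and Gbp2 lie in this order on chromosome 3 with Gbp2b before Gbp2, while Gbp4 with Gbp9, and Igtp with Irgm2, overlap.

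Levels of the genes differed widely in untreated cells. Per kb of exon, the regulators Irgm1 (24.3 ± 7.44 CPM per kb, SD, n = 2) and Igtp (16.3 ± 4.12) were highest in control, and their ranges overlapped. Gbp3 (7.74 ± 1.38), Gbp2 (7.61 ± 0.445), Irgm2 (6.62 ± 1.97) and Gbp7 (5.69 ± 1.86 CPM per kb) followed, each overlapping the next. Gbp9 (1.22 ± 0.0614), Iigp1 (0.163 ± 0.155) and Gbp5 (0.103 ± 0.0135 CPM per kb) were lower, and Gbp4 had 0 counts in both control libraries. In bulk RNA, fewer cells that express a gene and less RNA per cell cannot be told apart.

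In LPS cells the order of levels per kb was another one. Gbp2 (569.8 ± 196 CPM per kb) and Gbp3 (359 ± 116) were then highest, with overlapping ranges. Igtp (181 ± 61.5), Irgm1 (153 ± 55.9) and Gbp7 (97.6 ± 33.8) followed, each overlapping its neighbour. Irgm2 (51.6 ± 16.3) overlapped Gbp5 (33.3 ± 10.1), Gbp9 (7.94 ± 1.56) overlapped Iigp1 (4.73 ± 3.98), and Gbp4 stayed lowest at 0.943 ± 0.296 CPM per kb. In AGE+LPS and FruArg+LPS cells Gbp2 (144 ± 15.4 and 228 ± 135 CPM per kb) and Gbp3 (80.6 ± 12.8 and 124 ± 71.9) had the highest means. In FruArg+LPS cells the ranges of Gbp2 and Gbp3, and of Gbp3 and Igtp, overlapped.

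The first comparison, LPS against control, asks how these genes stand in LPS-activated microglia. All 10 GTPase genes were up-regulated. They passed the filter on low counts and were called DEGs (changed at least 2-fold, with an adjusted p below 0.05), beside 1485 of all 12888 genes tested, or 11.5%, called up. Their median log2 fold change was 4.32, also with Gbp4 at its lower bound, and that of all genes tested was 0.02. In each of them both LPS libraries lay above both control libraries, which held for 31.6% of all genes tested. All 10 were called with every alternative tried.

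Gbp2, a guanylate-binding protein that is recruited to the vacuole of Toxoplasma gondii, had 18.4 and 19.9 CPM in control, 1085 and 1783 CPM in LPS, 334 and 388 CPM in AGE+LPS, and 334 and 814 CPM in FruArg+LPS libraries. It rose 76.3-fold after LPS (log2 fold change 6.25, SE 0.341, edgeR adjusted p = 5.5e-06). Both co-treated groups lay between control and LPS without overlap with either. Gbp3, also on chromosome 3, had 22.1 and 28.5 CPM in control, 906 and 1440.3 CPM in LPS, 234 and 293 CPM in AGE+LPS, and 238 and 570.3 CPM in FruArg+LPS libraries. Its log2 fold change after LPS was 5.55 (SE 0.327, edgeR adjusted p = 8.6e-06). The 2 FruArg+LPS libraries of both genes were further apart than the 2 AGE+LPS libraries.

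Gbp5, which is known to promote assembly of the NLRP3 inflammasome, was close to 0 in untreated cells. It had 2 and 8 counts (0.622 and 0.749 CPM) in control, and 174 and 269 CPM in LPS, 55.1 and 35.3 CPM in AGE+LPS, and 43.3 and 127 CPM in FruArg+LPS libraries. At 8.28 on the log2 scale (SE 0.392, edgeR adjusted p = 2.7e-06) it had the largest fitted rise among the 9 GTPase genes with counts in control. It was also the only one of the 10 that was lower in replicate 2 of AGE+LPS than in replicate 1. Gbp7, which has been linked to assembly of the phagocyte NADPH oxidase, had 24.6 and 39.3 CPM in control, 414 and 682 CPM in LPS, 169 and 233 CPM in AGE+LPS, and 134 and 314 CPM in FruArg+LPS libraries. It rose 17.3-fold (log2 fold change 4.11, SE 0.333, edgeR adjusted p = 4.6e-05).

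Of the genes described, the guanylate-binding proteins of chromosome 5 were less abundant than those of chromosome 3 in the groups given LPS. In control Gbp9 lay above Gbp5. Gbp9 had 6.53 and 6.08 CPM in control, 35.4 and 46.8 CPM in LPS, 16.4 and 20.2 CPM in AGE+LPS, and 15.8 and 29.5 CPM in FruArg+LPS libraries. It rose 6.74-fold (log2 fold change 2.75, SE 0.279, edgeR adjusted p = 1.3e-04), the smallest rise among the 6 guanylate-binding proteins. Gbp4 had 0 and 0 counts in control, 44 and 94 counts in LPS, 24 and 26 counts in AGE+LPS, and 12 and 23 counts in FruArg+LPS libraries. Set against 3 counts over the control group (0.216 CPM), its mean was at least 32.8-fold higher in LPS, at least 17.1-fold higher in AGE+LPS and at least 16.5-fold higher in FruArg+LPS cells. Such bounds cover counting error only, as the reads carry no molecular identifiers. The LPS call of Gbp4 had an edgeR adjusted p of 4.3e-04.

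Among the regulatory immunity-related GTPases, Irgm1 acts in mitochondrial quality control, autophagy and restraint of the effector GTPases. It had 110.4 and 172 CPM in control, 658 and 1118 CPM in LPS, 217 and 370.5 CPM in AGE+LPS, and 265 and 526 CPM in FruArg+LPS libraries. It rose 6.43-fold after LPS (log2 fold change 2.69, SE 0.321, edgeR adjusted p = 3.0e-04), which was within the standard error of the rise of Gbp9. Igtp, also called Irgm3, sits on the endoplasmic reticulum and lipid droplets. It had 27.1 and 38.8 CPM in control, 278 and 454 CPM in LPS, 60.8 and 94.4 CPM in AGE+LPS, and 65.8 and 217 CPM in FruArg+LPS libraries. Irgm2, a regulator found at the Golgi, had 19.3 and 29.6 CPM in control, 148 and 233 CPM in LPS, 49.4 and 66.7 CPM in AGE+LPS, and 69.9 and 105 CPM in FruArg+LPS libraries. Igtp rose 11.2-fold (log2 fold change 3.49, SE 0.304, edgeR adjusted p = 6.5e-05) and Irgm2 rose 7.82-fold (log2 fold change 2.97, SE 0.299, edgeR adjusted p = 1.3e-04). In both genes the LPS libraries were the highest and the control libraries the lowest, without overlap.

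Iigp1, the effector among the 4 (also called Irga6), loads onto vacuoles of Toxoplasma and Chlamydia. It had 0.311 and 1.59 CPM in control, 11.1 and 43.9 CPM in LPS, 2.14 and 4.55 CPM in AGE+LPS, and 0.229 and 7.22 CPM in FruArg+LPS libraries. The counts behind these were 1 and 17, 89 and 478, 15 and 30, and 1 and 38. It rose 23.1-fold after LPS (log2 fold change 4.53, SE 0.739, edgeR adjusted p = 0.0017), with the largest spread between replicates among the 10. This value moved with the library left out, from 3.23 without LPS replicate 2 to 6.42 without control replicate 2. Replicate 1 of FruArg+LPS and replicate 1 of control had 1 count each, under the 3 counts taken as a floor, so their order cannot be told, whereas replicate 2 of FruArg+LPS lay above both control libraries.

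**Figure D2:**
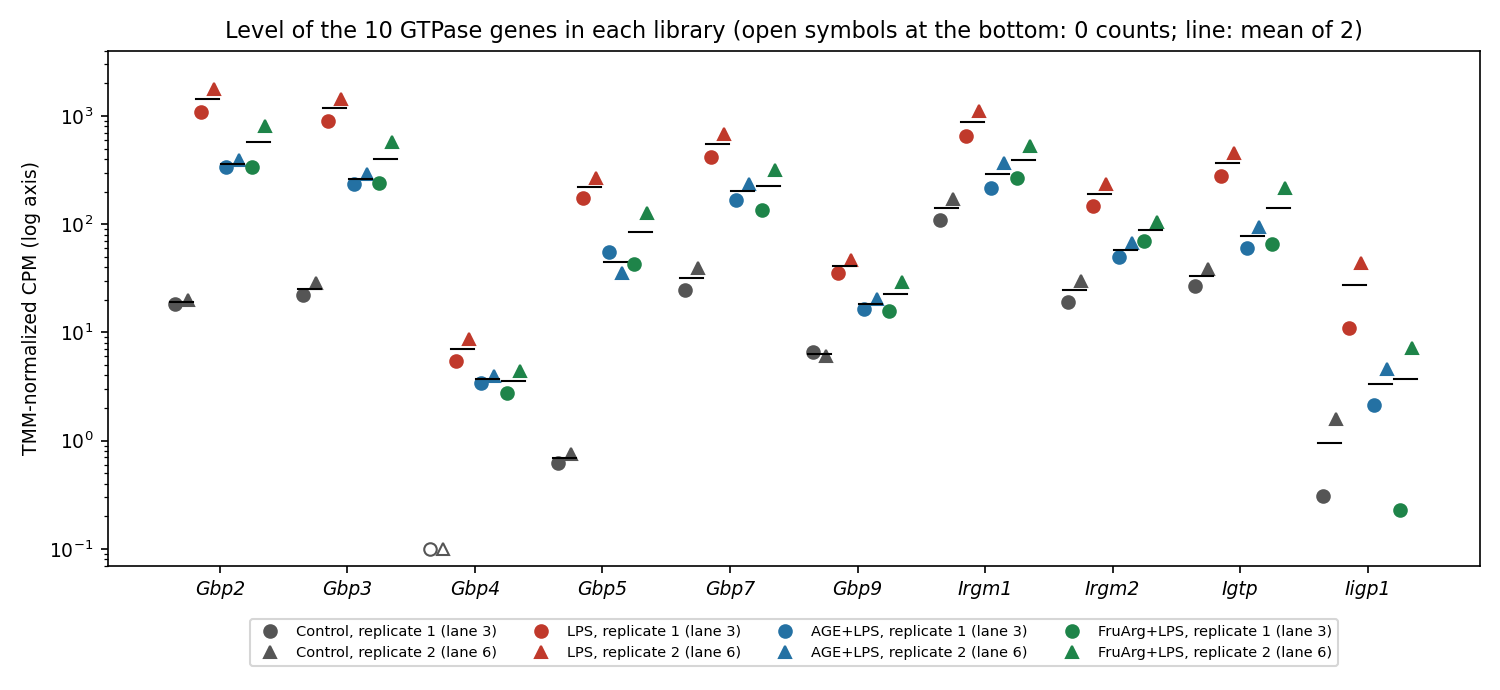
Level of each GTPase gene in each library (y axis, TMM-normalized CPM on a log axis), with circles for replicate 1 in lane 3, triangles for replicate 2 in lane 6 and a line at the mean of the 2. In every gene the LPS libraries lie above those of control, AGE+LPS and FruArg+LPS, and Gbp4 has 0 counts in control.

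Differences within lanes were taken on log2 values with a prior count of 2. The difference between LPS and control was larger in lane 6 than in lane 3 in the GTPase genes with at least 3 counts in each control library. This was not tested. Gbp4, Iigp1 and Gbp5 had 0, 1 and 2 counts in control replicate 1, so their order between lanes cannot be told. The median log2 difference of the 10 genes was 4.16 in lane 3 and 4.33 in lane 6, and that of all genes tested was -0.025 and -0.024. Gbp2 differed by 5.86 and 6.46, and Irgm1 by 2.57 and 2.70 on the log2 scale in lanes 3 and 6. Scaling by library size alone moved the median of all genes tested to -0.4, and the median of the 10 was then 3.89 with all 10 called up.

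The second comparison, AGE+LPS against LPS, asks whether the extract changes the response to LPS. All 10 GTPase genes were lower in AGE+LPS than in LPS cells, without overlap between the groups, which held for 23.3% of all genes tested. Of them 4, Gbp5, Gbp3, Gbp2 and Igtp, were called down, beside 62 of all 12317 genes tested, or 0.503%. With the replicate block 9 were called down, all but Gbp4, beside 594 of all genes tested, or 4.82%. The median log2 fold change of the 10 genes was -1.85, or -1.82 with the block, and that of all genes tested was -0.00052.

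Gbp3 fell 4.45-fold (log2 fold change -2.15, SE 0.294, edgeR adjusted p = 0.04) and Gbp5 fell 4.88-fold (log2 fold change -2.29, SE 0.322, edgeR adjusted p = 0.042). Gbp2 fell 3.96-fold (log2 fold change -1.99, SE 0.296) and Igtp fell 4.71-fold (log2 fold change -2.24, SE 0.333), both with an edgeR adjusted p of 0.046. These 4 calls stood just inside the threshold. The other log2 fold changes were -3.05 for Iigp1, -1.71 for Irgm2, -1.59 for Irgm1, -1.45 for Gbp7, -1.17 for Gbp9 and -0.94 for Gbp4, with edgeR adjusted p from 0.057 (Irgm2) to 0.27 (Gbp4). The value of Iigp1 ran from -3.72 to -1.74 over the alternatives. With the replicate block the standard errors were smaller, 0.104 for Gbp2 and 0.231 for Iigp1, and the edgeR adjusted p lay between 1.8e-37 (Igtp) and 0.0078 (Gbp4).

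Within lanes each of the 10 genes was lower in AGE+LPS than in LPS cells. The median log2 difference was -1.63 in lane 3 and -2.00 in lane 6, against -0.012 and 0.002 for all genes tested. Igtp (-2.19 and -2.26) and Irgm1 (-1.60 and -1.59) had close values in lanes 3 and 6, whereas Gbp5 (-1.65 and -2.92) and Iigp1 (-2.23 and -3.19) differed more in lane 6. Of the 10 genes, 9 were called down with DESeq2 (529 of all genes called up or down) and 9 when genes with at least 1 count were kept (927 of all genes), but 1 (Gbp3) with RLE size factors (68 of all genes). A fit without 1 library takes its spread from the other group alone, since 1 library is left in its own. Such fits gave 9 of the 10 and 646 of all genes (LPS replicate 1 left out), 7 and 441 (LPS replicate 2), 6 and 349 (AGE+LPS replicate 1), and 9 and 619 (AGE+LPS replicate 2).

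The third comparison, FruArg+LPS against LPS, asks the same of the single compound. It shares the LPS libraries with the first and the second comparison, so these comparisons are not independent of each other. All 10 GTPase genes had lower values in both FruArg+LPS libraries than in both LPS libraries, which held for 24.0% of all genes tested, but 0 were called down with edgeR without a block. Of all 12071 genes tested 0 (0%) were called, and an unadjusted p below 0.05 was found for 1543 genes, 9 of the 10 among them. With the replicate block 8 of the 10 were called down, beside 420 of all genes tested, or 3.48%. DESeq2 called 5 (Gbp2, Gbp3, Gbp5, Gbp7 and Irgm2) without a block, beside 104 of the 9671 genes to which it gave an adjusted p, or 1.08%. The median log2 fold change of the 10 genes was -1.30, or -1.38 with the block, and that of all genes tested was -0.012.

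For Gbp3 the log2 fold change was -1.53 (SE 0.414, edgeR adjusted p = 0.24), or -1.62 (SE 0.2, edgeR adjusted p = 2.4e-09) with the replicate block. Irgm2 had one of -1.12 (SE 0.307, edgeR adjusted p = 0.25), or -1.11 (SE 0.176, edgeR adjusted p = 1.7e-06) with the block. The remaining values without a block were -2.83 for Iigp1, -1.37 for Gbp5 and Igtp, -1.32 for Gbp2, -1.29 for Gbp7, -1.16 for Irgm1, -0.98 for Gbp4 and -0.85 for Gbp9, with edgeR adjusted p from 0.29 to 0.44. Gbp4 (-0.98, edgeR adjusted p = 0.16) and Gbp9 (-0.89, edgeR adjusted p = 0.0032) were the 2 that were not called with the block. The value of Iigp1 ran from -6.82 without FruArg+LPS replicate 2 to -1.53 without LPS replicate 2.

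Within lanes all 10 genes were lower in FruArg+LPS than in LPS cells as well, with a median log2 difference of -1.66 in lane 3 and -1.10 in lane 6, against -0.029 and 0.00033 for all genes tested. Gbp2 (-1.70 and -1.13), Gbp5 (-2.00 and -1.08) and Igtp (-2.07 and -1.06) differed more in lane 3, as did Iigp1 (-4.47 and -2.56), with 1 count in FruArg+LPS replicate 1, while Irgm2 (-1.08 and -1.15) and Gbp4 (-0.93 and -0.94) had close values in lanes 3 and 6. With 1 library left out, and the spread again taken from the other group, the count called down was 8 without LPS replicate 1 (198 of all genes called up or down), 0 without LPS replicate 2 (5 of all genes), 1 (Iigp1) without FruArg+LPS replicate 1 (57 of all genes) and 9 without FruArg+LPS replicate 2 (1549 of all genes). Calls over all genes thus moved with that of the 10. Keeping genes with at least 1 count gave 8 (503 of all genes).

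**Figure D3:**
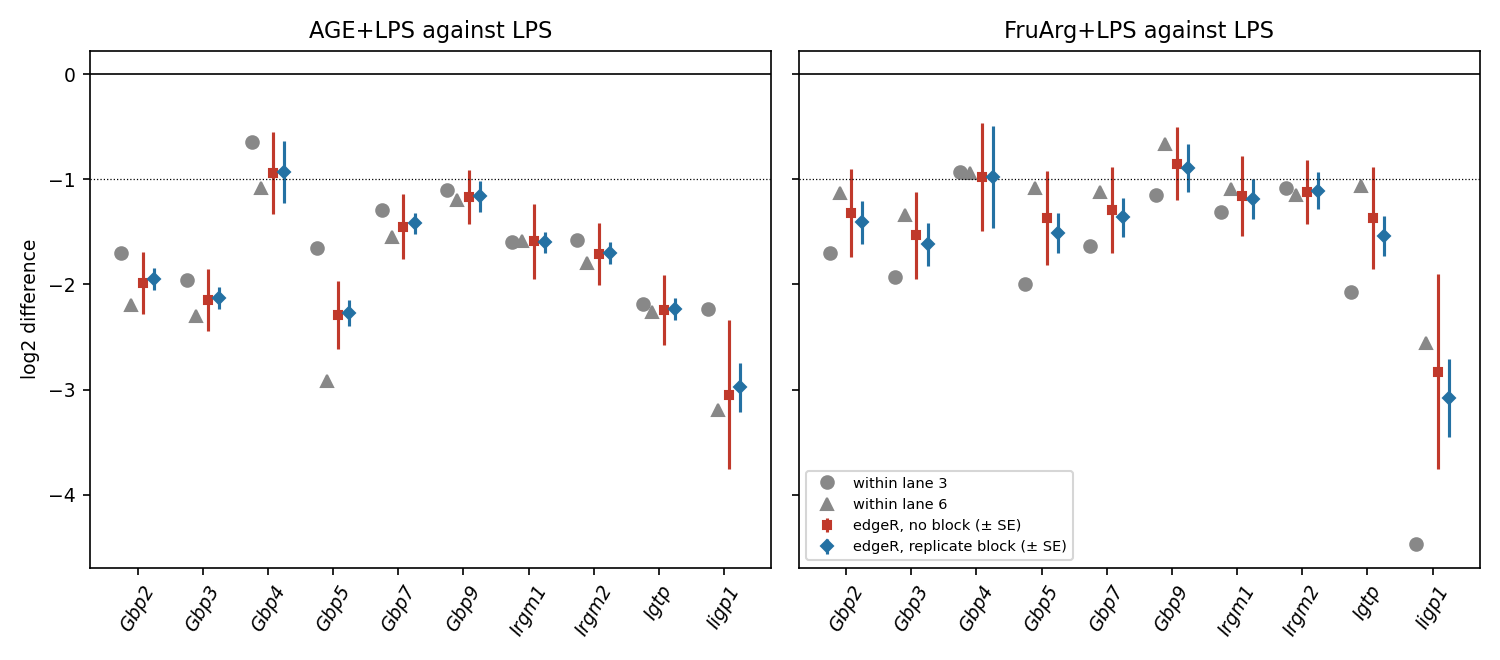
Log2 difference of each GTPase gene from LPS cells in AGE+LPS (left) and FruArg+LPS (right) cells, within lane 3 (circles) and lane 6 (triangles) and as fitted by edgeR without a block (squares) and with the replicate block (diamonds), with bars for the standard error. All values lie under 0, and the dotted line marks a 2-fold decrease.

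The co-treated cells were also set against control, to show how far the GTPase genes stayed above the untreated level. These comparisons share the control libraries with the first one. In AGE+LPS cells 9 of the 10 genes were called up (951 of all 12449 genes tested, or 7.64%), and all 10 lay above control without overlap (28.2% of all genes tested). Their median log2 fold change was 2.10, and that of all genes tested was 0.013. The log2 fold change was 5.97 for Gbp5 (SE 0.409, edgeR adjusted p = 3.6e-05) and 4.25 for Gbp2 (SE 0.222, edgeR adjusted p = 1.0e-05). By these fitted values the regulators were closest to control, with 1.07 for Irgm1 (SE 0.295, edgeR adjusted p = 0.033) and 1.23 for both Igtp and Irgm2 (edgeR adjusted p = 0.013 and 0.012). Within lane 3, however, Gbp9 (1.29) was closer to control than Irgm2 (1.34). The fitted value of Iigp1 was 1.51 (SE 0.659, edgeR adjusted p = 0.15), and it ran from 0.89 to 3.34 over the alternatives. It was 1.72 (SE 0.549, edgeR adjusted p = 0.011) with the replicate block, which called all 10 up, beside 8.66% of all genes tested. Irgm1, Igtp and Irgm2 were not called with library size scaling or without control replicate 1, and Irgm1 and Igtp neither with the 4 groups in one fit nor without AGE+LPS replicate 2. Over the alternatives their edgeR or DESeq2 adjusted p lay between 7.5e-08 and 0.16 (Irgm1), 3.1e-08 and 0.14 (Igtp), and 1.2e-07 and 0.068 (Irgm2).

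In FruArg+LPS cells 9 GTPase genes passed the filter and all 9 were called up (1154 of all 12038 genes tested, or 9.59%). Iigp1 did not pass it. Both FruArg+LPS libraries lay above both control libraries in the other 9, and 30.6% of all genes tested did so. The median log2 fold change of the 9 was 2.81, and that of all genes tested was 0.002. The values were 6.89 for Gbp5 (SE 0.667, edgeR adjusted p = 4.2e-04), 4.92 for Gbp2 (SE 0.439, edgeR adjusted p = 2.8e-04), 2.11 for Igtp (SE 0.495, edgeR adjusted p = 0.019) and 1.51 for Irgm1 (SE 0.347, edgeR adjusted p = 0.018). Without FruArg+LPS replicate 2 Igtp (0.99) and Irgm1 (0.92) were under a 2-fold change, without control replicate 2 Gbp4 was not called, and DESeq2 did not call Igtp (adjusted p = 0.061, with 3.0e-31 to 0.061 over the alternatives).

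The last comparison set the co-treatments against each other. With edgeR 0 of the 10 GTPase genes and 0 of all 11915 genes tested (0%) were called between FruArg+LPS and AGE+LPS cells, with 668 genes and 0 of the 10 at an unadjusted p below 0.05. DESeq2 called 0 genes as well (530 genes and 1 of the 10 at an unadjusted p below 0.05), and the replicate block called 107 genes (0.898%), 0 of the 10 among them (2176 genes and 6 of the 10 at an unadjusted p below 0.05). The median log2 fold change of the 10 was 0.50, from -0.046 for Gbp4 (SE 0.584) to 0.90 for Gbp5 (SE 0.439, edgeR adjusted p = 0.84). Within lanes the median was -0.025 in lane 3 and 0.64 in lane 6. In lane 3 Gbp2 differed by 0.00079 and Gbp3 by 0.028 on the log2 scale, while in lane 6 they differed by 1.07 and 0.96. Irgm2 alone was higher in both FruArg+LPS libraries than in both AGE+LPS libraries (18.4% of all genes tested were), by 0.58 on the log2 scale (SE 0.287, edgeR adjusted p = 0.84). Without FruArg+LPS replicate 2 the median of the 10 was -0.18. The difference between the effects of the co-treatments is this comparison.

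Other GTPase genes were read from the same fits, which besides guanylate-binding proteins and immunity-related GTPases include Mx1, Mx2 and Gvin1 of other families. Of 20 listed, 14 passed the filter in LPS against control and 13 were called up (11.5% of all genes tested), with a median log2 fold change of 3.24, or 3.12 with genes at 0 in control at their bound. The exception was 9930111J21Rik1, an IRG-like gene, at 0.98 on the log2 scale (SE 0.404, edgeR adjusted p = 0.098). Gm12250, the gene of Irgb10, an effector that acts with guanylate-binding proteins on bacterial membranes, rose from 4.04 and 7.11 CPM to 129 and 235 CPM (log2 fold change 4.96, SE 0.379, edgeR adjusted p = 3.5e-05). GENCODE M21 types it as a processed pseudogene, and Mx2 as a polymorphic pseudogene. Mx1, an antiviral dynamin-like GTPase, rose from 4.04 and 4.96 CPM to 137 and 276 CPM (log2 fold change 5.51, SE 0.396, edgeR adjusted p = 2.6e-05).

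The remaining values of that list after LPS were 3.90 for Mx2, 3.35 for Ifi47, 5.99 for Gbp6 (0 and 4 counts in control), 4.11 for Gm4951 (0 and 5 counts in control), 3.13 for Gm12185, 3.12 for Tgtp2, 2.38 for Gvin1, 1.91 for Gm5431, 1.71 for 9930111J21Rik2 and 1.43 for Gbp8. Gbp2b, with 0 counts in both control libraries, was at least 7.02-fold higher. In fits with 1 library left out whose spread comes from the other group alone, some calls were lost. Gbp8 was not called without LPS replicate 2 (1.14), control replicate 1 (1.54) or control replicate 2 (1.25). Without LPS replicate 2, 9930111J21Rik2 (1.21) and Gm12185 (2.18) were not called, and without control replicate 2, Gvin1 (1.54) and Gbp2b were not. DESeq2 and library size scaling did not call Gbp8 (adjusted p = 0.1 for both), nor did the 4 groups in one fit call 9930111J21Rik2 (edgeR adjusted p = 0.053).

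In AGE+LPS against LPS, edgeR without a block called down 2 of the 13 of these that were tested (0.503% of all genes tested), with a median log2 fold change of -2.36. With the replicate block 12 were called down (4.82%), with a median of -2.30, and DESeq2 called 9 down (314 of 12676 genes). Mx1 fell 12.7-fold to 14.0 and 18.5 CPM (log2 fold change -3.67, SE 0.393, edgeR adjusted p = 0.036) and Gm12250 fell 8.26-fold to 15.8 and 28.3 CPM (log2 fold change -3.05, SE 0.404, edgeR adjusted p = 0.039). Gbp8 had a value of the opposite sign. It had 4.75 and 6.89 CPM in LPS and 8.13 and 9.09 CPM in AGE+LPS libraries (log2 fold change 0.56, SE 0.339, edgeR adjusted p = 0.46), and it shares annotated exon bases with Gbp4 and Gbp9. In FruArg+LPS against LPS, edgeR without a block called 0 of 13 (0% of all genes tested), with a median of -1.56. With the block 9 were called down (3.48%), with a median of -1.70, and DESeq2 called 3 down (1.08%). Mx1 had -2.81 (SE 0.478, edgeR adjusted p = 0.18), or -2.86 (SE 0.197, edgeR adjusted p = 3.4e-19) with the block.

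Of the interferons, Ifng, Ifna2 and Ifna4 had 0 counts in all 8 libraries, where 3 counts are worth between 0.276 and 0.933 CPM. Ifnb1, the interferon made downstream of TLR4, had 0 and 2 counts in control, 8 and 24 counts in LPS, 0 and 3 counts in AGE+LPS, and 0 and 4 counts in FruArg+LPS libraries, too few to pass the filter. Ifnar1 had 148 and 123 CPM in control and 144 and 132 CPM in LPS libraries. None of the 4 receptor genes was called in any of the first 3 comparisons, with log2 fold changes after LPS of 0.059 for Ifnar1, 0.47 for Ifnar2, -0.59 for Ifngr1 and 0.84 for Ifngr2 (edgeR adjusted p from 0.011 to 0.85). Ifngr2 had a low p and a change under 2-fold.

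Genes for JAK kinases and IRFs act between the interferon receptors and the GTPase genes. Irf7, which amplifies type I interferon production, rose from 83.4 and 128 CPM to 882 and 989 CPM (log2 fold change 3.17, SE 0.267, edgeR adjusted p = 5.4e-05). Irf1, a factor for guanylate-binding protein genes, rose from 26.8 and 35.5 CPM to 336 and 280.1 CPM (log2 fold change 3.32, SE 0.238, edgeR adjusted p = 2.5e-05), and Jak2 rose from 49.8 and 50.6 CPM to 427 and 603 CPM (log2 fold change 3.39, SE 0.249, edgeR adjusted p = 2.9e-05). Jak1 had 0.73 (edgeR adjusted p = 0.02), under a 2-fold change, and Irf2 had -0.049 (edgeR adjusted p = 0.93), so not every gene of this list rose. In AGE+LPS against LPS Irf7 was called down (log2 fold change -1.42, SE 0.209, edgeR adjusted p = 0.046), and Irf7, Irf1, Stat2 and Irf2 were with the replicate block, beside 0.503% and 4.82% of all genes tested. Irf7 was not called with RLE size factors (edgeR adjusted p = 0.053). In FruArg+LPS against LPS Irf7 had -0.75 (edgeR adjusted p = 0.35), Irf1 -0.71 (edgeR adjusted p = 0.29) and Jak2 -0.78 (edgeR adjusted p = 0.36), none of them called.

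Of 6 feedback inhibitors of this pathway, 4 were called up after LPS, beside 11.5% of all genes tested. Usp18, which removes ISG15 and restrains the type I interferon receptor, rose from 111 and 137 CPM to 944 and 1077 CPM (log2 fold change 3.06, SE 0.236, edgeR adjusted p = 3.6e-05). It was called down in AGE+LPS against LPS, to 346 and 349 CPM (log2 fold change -1.54, SE 0.209, edgeR adjusted p = 0.04). Socs3, an inhibitor of cytokine receptors that signal through STAT3, rose from 4.35 and 4.87 CPM to 46.4 and 29.7 CPM after LPS (log2 fold change 3.05, SE 0.322, edgeR adjusted p = 1.6e-04). Unlike the GTPase genes, it had higher values in both co-treated groups than in LPS, with 90.7 and 56.1 CPM in AGE+LPS (log2 fold change 0.95, edgeR adjusted p = 0.2) and 99.0 and 85.4 CPM in FruArg+LPS libraries (1.29, edgeR adjusted p = 0.21, or 1.32 and 2.4e-07 with the block). Ptpn2, a phosphatase of JAKs, stood 1.06 higher on the log2 scale after LPS (SE 0.259, edgeR adjusted p = 0.013) and was not called with library size scaling, without LPS replicate 2 or without control replicate 1 (adjusted p from 0.021 to 0.079 there). Ptpn6, also a phosphatase, had -0.82 (edgeR adjusted p = 0.013), under a 2-fold change.

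Of 9 genes from TLR4 to interferon beta, 6 were called up after LPS, beside 11.5% of all genes tested. Cd14, the coreceptor for LPS, rose from 117 and 121 CPM to 925 and 764 CPM (log2 fold change 2.86, SE 0.226, edgeR adjusted p = 4.1e-05). The kinases of IRF3 rose as well, Ikbke with 2.53 (SE 0.213, edgeR adjusted p = 5.4e-05) and Tbk1 with 1.42 (SE 0.214, edgeR adjusted p = 0.0011, not called with library size scaling), and Tlr4 had 0.18 (edgeR adjusted p = 0.66). With edgeR without the block 0 of the 9 were called in AGE+LPS or in FruArg+LPS against LPS. The block called 1 (Ticam2) down in each, beside 4.82% and 3.48% of all genes tested. DESeq2 called 1 down in AGE+LPS (314 of 12676 genes) and 0 in FruArg+LPS cells (104 of 9671 genes). In AGE+LPS and FruArg+LPS against LPS Cd14 had log2 fold changes of 0.27 and 0.56 (edgeR adjusted p = 0.61 and 0.39). Ticam2 had -1.11 and -1.14 (edgeR adjusted p = 0.075 and 0.22). The median of the 9 was -0.14 and -0.24, and that of the GTPase genes was -1.85 and -1.30.

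Effector immunity-related GTPases and guanylate-binding proteins are placed on vacuoles by the ATG8 conjugation machinery of autophagy. Of 10 genes of it, 2 were called up after LPS, Atg12 (log2 fold change 1.19, SE 0.203, edgeR adjusted p = 0.0021) and Atg16l1 (1.01, SE 0.205, edgeR adjusted p = 0.0054), or 1, Atg12, with the replicate block, a share near the 11.5% of all genes tested that were called up. Atg12 was not called with library size scaling (0.77, edgeR adjusted p = 0.016). Gabarap, Gabarapl1 and Map1lc3b had 0.17, 0.70 and 0.39 (edgeR adjusted p = 0.64, 0.03 and 0.17). None of the 10 was called in either co-treatment against LPS, with medians of -0.18 and -0.058.

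Of 7 genes for sensing in the cytosol, where guanylate-binding proteins expose bacterial LPS and DNA, 6 passed the filter and 3 were called up after LPS (Casp1, Casp4 and Nlrp3), beside 11.5% of all genes tested, or 4 with the replicate block, which added Il18 (log2 fold change 0.96, edgeR adjusted p = 0.074, or 1.00 and 0.001 with the block). Casp4, the mouse gene of caspase-11, which binds LPS in the cytosol, rose from 22.4 and 44.5 CPM to 325 and 484 CPM (log2 fold change 3.60, SE 0.345, edgeR adjusted p = 1.0e-04). The log2 fold change was 2.03 for Casp1, the protease of inflammasomes (SE 0.392, edgeR adjusted p = 0.0041), 0.50 for Aim2, a DNA sensor (edgeR adjusted p = 0.19), and 0.36 for Gsdmd, the pore-forming substrate of both proteases (edgeR adjusted p = 0.19). In AGE+LPS against LPS Casp4 and Casp1 each had a log2 fold change of -1.44 (edgeR adjusted p = 0.069 and 0.16), and in FruArg+LPS against LPS -1.44 and -1.42 (edgeR adjusted p = 0.21 and 0.27). Nlrp3 had values of the opposite sign. It had 13.1 and 11.5 CPM in control, 80.0 and 63.4 CPM in LPS, 117 and 95.9 CPM in AGE+LPS, and 130.4 and 136 CPM in FruArg+LPS libraries. It rose after LPS (log2 fold change 2.59, SE 0.246, edgeR adjusted p = 9.5e-05), and against LPS it had 0.57 in AGE+LPS (edgeR adjusted p = 0.26, or 2.8e-06 with the block) and 0.90 in FruArg+LPS cells (edgeR adjusted p = 0.24, or 1.2e-04 with the block), under a 2-fold change in both. With edgeR without the block 0 of the 6 were called in either co-treatment against LPS. The block called 3 down in each, Casp1, Casp4 and Il18, beside 4.82% and 3.48% of all genes tested. DESeq2 called 2 of the list down in each, beside 314 of 12676 and 104 of 9671 genes.

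Genes whose pattern was most like that of the GTPase genes were looked for among 10002 other genes with a mean of at least 5 CPM. The measure was Pearson's r of log2 CPM with the mean of the 10 standardized profiles over the 8 libraries, which share groups and lanes, so it describes these libraries. The highest were Parp14 (r = 0.998), Mx2 (0.995), Tbk1 (0.994), Ifit1 (0.993) and Ifit3 (0.993). An r of at least 0.95 was found for 234 of the 10002 genes. Spearman's rho was 1 for Tbk1 and 0.976 for the other 4, with 42 genes at or above the fifth highest rho. Of the named genes, only Tbk1 was among these 42. Parp14, a mono-ADP-ribosyltransferase, had 98.9 and 129 CPM in control, 959.7 and 1343 CPM in LPS, 348 and 476 CPM in AGE+LPS, and 385 and 771 CPM in FruArg+LPS libraries. Ifit1, which binds foreign RNA, had 18.0 and 40.0 CPM in control, 734 and 1410.3 CPM in LPS, 199 and 348 CPM in AGE+LPS, and 211 and 551 CPM in FruArg+LPS libraries. They were chosen for this likeness, so their pattern is a description.

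The promoters of the GTPase genes were searched for the motifs through which interferons are known to act. The windows run from 250 bases before to 50 after the start of the gene in RefSeq (GRCm38.p6), and 7 of the 10 genes matched (Gbp2, Gbp3, Gbp5, Gbp7, Irgm1, Irgm2 and Igtp). Gbp4, Gbp9 and Iigp1 did not. The core of the interferon-stimulated response element, bound by IRFs, was taken as GAAANNGAAA on either strand, and the gamma-activated site as TTCNNNGAA, which reads the same on both strands. The 2 patterns can share bases. A core was present in at least 1 window of all 7 genes and in 3.44% of all 32851 windows of 300 bases. A gamma-activated site was present in 4 of the 7 (Gbp5, Gbp7, Irgm2 and Igtp) and in 8.3% of all windows. Of the 20 other GTPase genes 9 matched, and 6 had a core and 4 a gamma-activated site. Binding was not tested.

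The 60 bases around the core nearest to the gene start are printed for the 7 genes because the core is what their windows share, with core letters in capitals, each read 5′ to 3′ on the strand of the gene.
Gbp2 (chr3:142620579-142620638, + strand): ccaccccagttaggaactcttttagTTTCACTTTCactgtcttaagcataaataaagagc
Gbp3 (chr3:142559980-142560039, + strand): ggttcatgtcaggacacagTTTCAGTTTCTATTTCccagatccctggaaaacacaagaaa
Gbp5 (chr3:142496744-142496803, + strand): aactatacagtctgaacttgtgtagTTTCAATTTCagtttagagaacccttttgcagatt
Gbp7 (chr3:142530258-142530317, + strand): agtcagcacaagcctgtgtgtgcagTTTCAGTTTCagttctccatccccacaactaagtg
Irgm1 (chr11:48871410-48871469, - strand): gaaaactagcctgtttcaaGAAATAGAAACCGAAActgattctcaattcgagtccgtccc
Irgm2 (chr11:58214888-58214947, + strand): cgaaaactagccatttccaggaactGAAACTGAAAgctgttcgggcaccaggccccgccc
Igtp (chr11:58199497-58199556, + strand): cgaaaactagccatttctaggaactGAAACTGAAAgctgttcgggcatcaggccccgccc
The nearest core began 59 bases before the RefSeq start of Gbp2, 39 before Gbp3, 165 before Gbp5, 53 before Gbp7, 24 before Irgm1, 64 before Irgm2 and 34 before Igtp. RefSeq and GENCODE starts differ. The windows of Gbp5 (chr3:142496684-142496983), Irgm2 (chr11:58214727-58215026) and Irgm1 (chr11:48871371-48871670) lie inside the GENCODE spans of these genes. Gbp3 and Irgm1 held 2 overlapping cores in the printed stretch. In the 4 genes of chromosome 3 the core stood in the orientation TTTCNNTTTC, and in the 3 of chromosome 11 as GAAANNGAAA.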

How the data were processed

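The raw gene counts deposited by the authors were used as given, for 46078 genes in 8 libraries, and all count columns were used. The submitters' processing notes credit featureCounts, edgeR and GRCm38. Of the genes 45229 matched GENCODE M21. Tests used edgeR 4.0.16 (quasi-likelihood, TMM), with DESeq2 1.42.0, limma 3.58.1 and R 4.3.3. Tables and figures used Python 3.11.15, pandas 2.3.3 and matplotlib 3.10.9. Calls needed a change of 2-fold or more in either direction with an adjusted p below 0.05. Alternatives were DESeq2, RLE size factors, library size scaling, a filter of at least 1 count, the 4 groups in one fit, a replicate block, and each library left out. The tests were tried on simulated data first. The genes and lists were chosen with earlier results of these data known. Listed genes were named where they were called or have a stated role. Some listed genes and markers, and counts over lists that hold them, are not reported here.

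The log2 difference of replicate 2 from replicate 1 was correlated between groups over 12873 genes, with the lowest r, 0.244, for FruArg+LPS with Control and the highest, 0.628, for AGE+LPS with LPS. Chi-square per degree of freedom between replicates lay between 11.9 (Control) and 41.3 (LPS).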

Additional observations from a re-analysis of the deposited data

How the results depend on the processing

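All 10 GTPase genes were called up in LPS against control with every alternative. Their median log2 fold change of 4.32 was 4.46 with DESeq2, 3.89 with library size scaling, 4.49 with the replicate block and 3.46 to 5.12 with a library left out. In AGE+LPS against LPS 4 were called down, and 9 with DESeq2, 9 with at least 1 count, 9 with the replicate block, 1 with RLE size factors and 6 to 9 with a library left out. The median of -1.85 was -2.15 to -1.47 with a library left out. All genes called there were 98, and 529 with DESeq2, 927 with at least 1 count, 376 with the 4 groups in one fit, 1199 with the replicate block and 349 to 646 with a library left out. With RLE size factors the edgeR adjusted p was 0.054 for Gbp2, 0.051 for Gbp5, 0.054 for Igtp and 0.053 for Irf7. The cause was not tested.

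The replicate block called 8 of the 10 down in FruArg+LPS against LPS, where edgeR without it called 0. RLE size factors, library size scaling and the 4 groups in one fit called 0 as well. DESeq2 called 5, at least 1 count 8, and leaving out a library 0 to 9. The median of -1.30 was -2.07 to -0.79 with a library left out. All genes called there were 0, and 196 with DESeq2, 503 with at least 1 count, 5 with the 4 groups in one fit, 766 with the replicate block and 5 to 1549 with a library left out.

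In AGE+LPS against control the median of 2.10 was 1.84 with library size scaling and 1.91 to 3.19 with a library left out. Irgm1 was 0.81 with library size scaling, 1.05 (edgeR adjusted p = 0.12) with the 4 groups in one fit and 0.65 to 1.42 over the alternatives. Irgm2 was 0.98 and Igtp 0.97 with library size scaling, and Igtp 1.21 (edgeR adjusted p = 0.14) with the 4 groups in one fit. In FruArg+LPS against control the median of 2.81 was 1.77 to 3.33 with a library left out, all genes called were 2098, and 3416 without FruArg+LPS replicate 2.

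In FruArg+LPS against AGE+LPS the median of 0.50 was -0.18 to 0.99 with a library left out. Single genes changed sign there, with lowest and highest log2 fold changes of -0.12 and 1.18 for Gbp2, -0.15 and 1.12 for Gbp3, -0.42 and 0.25 for Gbp4, -0.066 and 1.49 for Gbp5, -0.59 and 0.65 for Gbp7, -0.21 and 0.69 for Gbp9, -0.15 and 0.85 for Irgm1, -0.24 and 1.49 for Igtp, and -3.75 and 1.12 for Iigp1 (-0.34 with the replicate block). All genes called were 0, and 40 with at least 1 count, 107 with the replicate block and 10 to 233 without a FruArg+LPS or AGE+LPS library. Of the 5 genes most like the GTPase genes by Pearson's r, Spearman's rho shared 1.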

Other observations

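Genes within 200 kb of a GTPase gene that are not among the listed GTPase genes were read after the data had been seen. Of 25 tested in LPS against control, 4 were called up, Olfr56 (log2 fold change 4.48), 4930438A08Rik (2.94), Psme2b (2.13) and Smim3 (2.09), and 1 down, Zfp692 (-1.4), beside 11.5% of all genes tested called up. Olfr56 shares annotated exon bases with Ifi47, and Psme2b with 9930111J21Rik1, so their counts may hold reads of these GTPase genes. With edgeR without a block none was called in AGE+LPS or FruArg+LPS against LPS.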
